A study of Mus musculus with 7 samples.

Results

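Mouse oocytes make many transcripts that are not assigned to an annotated gene, and 2599 of the 33437 transcripts measured in single oocytes were listed without a gene at a mean level of at least 1 RPM (reads per 1000000 mapped reads of the library). Members were the rows of the transcript table whose gene field was empty and whose mean RPM over 7 libraries reached 1. Intervals at 143.2 to 144.6 Mb of chromosome 4 and 93.5 to 95.9 Mb of chromosome 5 were left out. Of the 9498 transcripts with no annotated gene, 27.4% were kept, 6880 lay under 1 RPM and 19 lay in the left-out intervals, of which 1 reached 1 RPM. The level in these same libraries chose the members, so their presence at 1 RPM is not a finding. The difference between cKO and WT was not used for the choice, but the mean held 4 cKO libraries and 3 WT libraries and so gave more weight to cKO.

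Each library came from 1 germinal vesicle (GV) oocyte, the fully grown stage held before meiotic maturation, from C57BL6 females aged 21 days (the lines are kept on a C57BL/6OlaHsd background per the study's methods). The 4 Setd1b cKO oocytes were Setd1b floxed/floxed and Gdf9-Cre positive. The 3 Setd1b WT oocytes are labelled Setd1b floxed/floxed and Gdf9-Cre negative, so by the labels both genotypes carried the floxed alleles. The study's methods also allow heterozygous Cre carriers among the WT females, and which genotype each WT oocyte had beyond its label was not tested. Gdf9-Cre is driven by an oocyte promoter, and deletion is therefore limited to the oocyte. The labels do not say whether the oocytes came from separate females, and the p-values measure only the spread between these oocytes.

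SETD1B is a histone methyltransferase that places methyl groups on lysine 4 of histone H3, a modification found at active promoters. In growing oocytes, transcription also starts outside known genes, and many such starts lie in retrotransposons of the long terminal repeat class. Transcription across a region in growing oocytes is known to accompany gain of DNA methylation there. Long noncoding RNAs, antisense transcripts and unprocessed transcripts can all appear as transcripts with no gene.

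The sequence at a member's start was available where that start fell inside a RefSeq promoter window (GRCm38.p6), which covers 250 bases before and 50 bases after a gene's start. This held for 68 of the 2458 members on chromosomes with windows. Relative to the RefSeq gene with the nearest start, 31 ran on its strand and 37 on the opposite strand. Of the 67 tested among them, 6 were higher in cKO (8.96%, against 3.76% of all transcripts tested) and 0 were lower (against 1.95%). The 4 windows here, chosen after the values were seen, show that members that rose can start in promoters of very different CpG content. Each is written 5′ to 3′ on the strand of the RefSeq gene, with every CpG in capitals. The first 2 members run on the strand of the RefSeq gene (Gm33318 and Gm35155), and the others run opposite to it (Chmp2b, an ESCRT-III subunit gene, and Gm38579). The start of TCONS_00042055 also lies in the window of Gm36457, which runs on the member's own strand and starts 71 bases away. That window, not printed here, holds 32 CpG sites. The windows are chr6:37442260-37442559 on the plus strand, chr12:12827800-12828099 on the plus strand, chr16:65562713-65563012 on the minus strand and chr9:50392339-50392638 on the minus strand.
TCONS_00084225: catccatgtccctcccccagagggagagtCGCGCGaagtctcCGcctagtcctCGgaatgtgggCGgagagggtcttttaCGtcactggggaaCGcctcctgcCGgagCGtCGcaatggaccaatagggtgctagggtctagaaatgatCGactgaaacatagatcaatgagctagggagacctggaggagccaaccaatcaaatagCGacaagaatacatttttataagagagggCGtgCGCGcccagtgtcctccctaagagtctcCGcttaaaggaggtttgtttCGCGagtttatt
TCONS_00021297: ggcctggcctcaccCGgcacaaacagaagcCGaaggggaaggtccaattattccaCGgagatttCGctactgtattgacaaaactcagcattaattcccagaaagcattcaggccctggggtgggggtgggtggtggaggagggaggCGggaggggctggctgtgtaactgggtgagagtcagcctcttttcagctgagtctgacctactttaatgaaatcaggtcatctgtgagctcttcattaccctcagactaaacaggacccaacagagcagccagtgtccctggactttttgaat
TCONS_00042055: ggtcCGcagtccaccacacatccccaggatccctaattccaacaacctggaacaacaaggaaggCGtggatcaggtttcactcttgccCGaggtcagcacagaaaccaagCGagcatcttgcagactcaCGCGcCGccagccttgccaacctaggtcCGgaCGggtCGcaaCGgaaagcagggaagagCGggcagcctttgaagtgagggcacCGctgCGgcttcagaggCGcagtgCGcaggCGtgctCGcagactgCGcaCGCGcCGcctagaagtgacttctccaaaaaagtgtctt
TCONS_00102927: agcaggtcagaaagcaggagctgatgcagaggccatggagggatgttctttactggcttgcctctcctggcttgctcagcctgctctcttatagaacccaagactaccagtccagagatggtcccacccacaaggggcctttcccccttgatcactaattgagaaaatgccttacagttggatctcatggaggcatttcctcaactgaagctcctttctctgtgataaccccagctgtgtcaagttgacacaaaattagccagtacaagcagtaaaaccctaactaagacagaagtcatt

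These windows hold 19, 5, 22 and 0 CpG sites for TCONS_00084225, TCONS_00021297, TCONS_00042055 and TCONS_00102927, and the starts of the members lie 10, 33, 25 and 18 bases from the start of the RefSeq gene. The window of TCONS_00084225 holds the TATA-box letters TATAAA, the GC-box letters GGGCGG and CCAAT, on one strand or the other. Of the other 3, the window of TCONS_00021297 holds CCAAT. Over the 68 windows the median was 17.5 CpG sites against 7 over all 32851 windows. Windows entered by a member on the gene's own strand had a median of 6 CpG sites, and those entered on the opposite strand 22. Searched on both strands, TATAAA stood in 7.35% of the 68 windows and 13.6% of all windows, GGGCGG in 45.6% and 35.7%, and CCAAT in 44.1% and 37.4%. Chromosome 18, with 141 members, had no windows. The other members start outside the windows, and the start sequences of both groups were not analysed here.

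Library depth ran from 8582493 to 12972366 mapped reads, so 3 reads, taken as the floor, were worth 0.231 to 0.350 RPM. Reads summed over all measured transcripts were 8451974 of 10103998, 10410717 of 12142297, 9965852 of 11485032 and 7345360 of 8582493 mapped reads in cKO. In WT they were 11166219 of 12348438, 11687861 of 12972366 and 9651247 of 10688295. As a share of mapped reads this was lower in every cKO library than in every WT library, and its bearing on the changes given here was not tested. The table used here holds no row named Setd1b, so the deletion itself was not checked. Of 15 oocyte markers, 14 were in the table and 13 were tested, with 1 lower in cKO (Mos, a kinase of meiotic arrest, log2 fold change -1.34, limma adjusted p = 0.00581). Their summed level was 22315 to 24679 RPM in cKO and 26781 to 29335 RPM in WT, without overlap. Of 14 granulosa cell markers, 13 were in the table and 5 were tested, with 0 called. Their summed level was 75.4 to 87.2 RPM in cKO and 50.3 to 68.6 RPM in WT, without overlap. Among them Nr5a2 had 32.5 to 50.8 RPM in cKO and 27.4 to 28.3 RPM in WT, Cyp19a1 19.5 to 30.6 and 17.1 to 27.3 RPM, and Kitl 3.15 to 6.42 and 3.46 to 8.33 RPM, while Inha had 7.03, 11.4, 13.2 and 0.583 RPM in cKO and 0.810, 4.32 and 0 RPM in WT. Amh, Foxl2 and Gatm were at 0 or at most 0.174 RPM in every library. Of 3 blood cell markers, the 2 in the table were at 0 in all libraries. In a principal component analysis the second component (31.0% of variance) placed cKO 4 and WT 3 apart from the other 5 libraries.

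Members had a shorter median span and a lower median level than annotated transcripts at 1 RPM or more. Their genomic span, from first to last base with introns included, had a median of 7131 bases, with quartiles of 2787.5 and 16608 bases and extremes of 119 and 321126 bases. The 15194 annotated transcripts at 1 RPM or more had a median span of 22632 bases. The median member had 3.18 RPM, with quartiles of 1.70 and 7.59 RPM, against a median of 11.6 RPM for these annotated transcripts. At least 16 RPM was reached by 319 members and at least 100 RPM by 21. Scaled to span, the median was 0.593 RPM per kb for members and 0.553 RPM per kb for annotated transcripts at 1 RPM or more. Strands were even, with 1284 members on the plus strand and 1315 on the minus strand. Across members, span and level had a Spearman correlation of 0.237, a description over transcripts that share libraries.

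Every chromosome in the table from 1 to 19 and the X chromosome carried members. Their number ran from 82 on chromosome 16 to 226 on chromosome 1. As a share of the transcripts on a chromosome, members were fewest on chromosome 7, with 87 of 2062 or 4.22%, and most on chromosome 18, with 141 of 996 or 14.2%. Chromosome 15 followed with 139 of 1358, or 10.2%. Over the whole table the share was 7.77%.

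**Figure D1:**
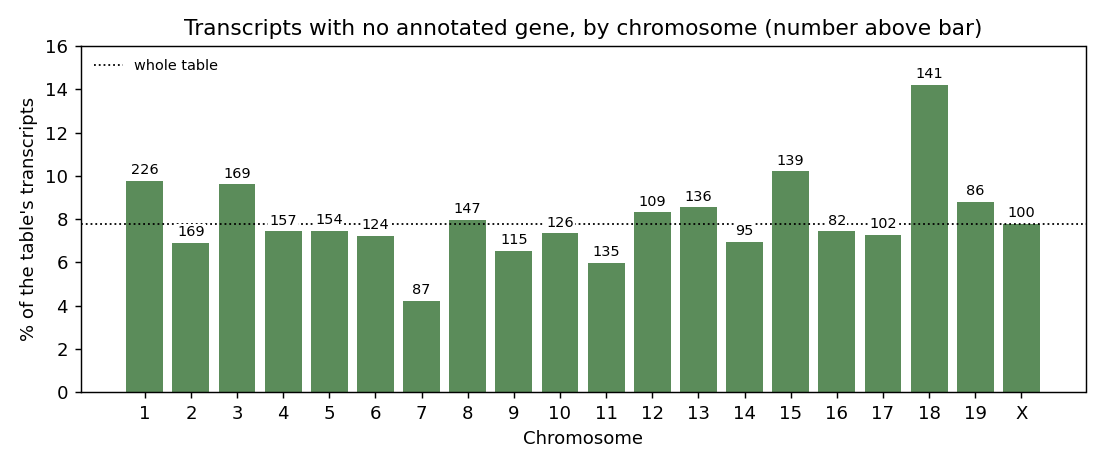
Share of the transcripts of each chromosome that had no annotated gene and a mean of at least 1 RPM (bars, percent; the number of members stands above each bar; dotted line, the whole table at 7.77%). Chromosome 18 stood highest at 14.2% and chromosome 7 lowest at 4.22%.

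GENCODE M21 and RefSeq left most members without a gene. The annotation behind the gene field is not given in the sources used here, and members were chosen for an empty field. Where the annotations match, a lack of overlap was set by that choice. GENCODE M21 had a gene overlapping 58 members, on the same strand for 37. RefSeq had a gene overlapping 604 members (23.2%), which was protein coding for 87, a long noncoding RNA for 473 and of another class for 44. Neither annotation covered 1960 members (75.4%), of which 1908 could be tested, with 117 higher (6.13%, against 3.76% of all transcripts tested) and 35 lower (1.83%, against 1.95%) in cKO by the test given below. The nearest transcript with an annotated gene was at a median distance of 28949 bases, with quartiles of 5167.5 and 104716.5 bases. It overlapped 174 members and was over 100 kb away for 674. Members also lay near each other, and 888 (34.2%) had another member within 50 kb.

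Some members overlap other transcripts in span. In all 666 members (25.6%) overlapped another transcript of the table, 0 of them on the same strand, against 33.5% of all transcripts. The kit does not mark strand, so reads from exons that overlap on opposite strands could not be told apart, but spans include introns, and whether exons overlap was not tested. On chromosome 15, between bases 19853951 and 19864109, TCONS_00036425 lies inside TCONS_00038610 on the other strand, and TCONS_00038611 lies beside them without overlap. TCONS_00038610 had 84.9, 70.6, 103 and 157 RPM in cKO and 131, 136 and 228 RPM in WT, and TCONS_00036425 had 80.3, 66.5, 96.9 and 148 RPM in cKO and 124, 130 and 216 RPM in WT. TCONS_00038611 had 84.5, 63.0, 104 and 159 RPM in cKO and 127, 131 and 232 RPM in WT. All 3 had nearly equal values in each library, including the one that overlaps neither of the others.

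The number of members at 1 RPM or more in a library uses the limit that chose the members, on a mean with more cKO libraries, and is a description with no test. It was 2200, 2244, 2346 and 2335 in cKO and 2007, 1941 and 2120 in WT, without overlap (2281 ± 70.9, SD, n = 4, and 2023 ± 90.5, SD, n = 3). After thinning every library to 8582493 reads the expected numbers were 2218 to 2339 in cKO and 1920 to 2106 in WT. At a limit of 4 RPM the ranges were 993 to 1302 in cKO and 879 to 1072 in WT and overlapped. Over all 33437 transcripts the number at 1 RPM or more was 17267 to 18196 in cKO and 16484 to 16819 in WT, also without overlap. Among members with a mean of 1 RPM in both genotypes it was 1866 to 1930 in cKO and 1792 to 1898 in WT, and the genotypes overlapped. The summed granulosa markers were higher and the summed oocyte markers lower in the same cKO libraries, as given above, and their part in this was not tested.

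The summed level of the members overlapped between genotypes. It was 20645, 20367, 23524 and 26482 RPM in cKO (22754 ± 2866, SD, n = 4) and 18882, 18458 and 23971 RPM in WT (20437 ± 3068, SD, n = 3). cKO 4 and WT 3 had the highest sum in each genotype. Members therefore made up 1.85% to 2.65% of mapped reads in every library. RPM is relative to the library, and less RNA per oocyte cannot be told apart from a change in its makeup.

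**Figure D2:**
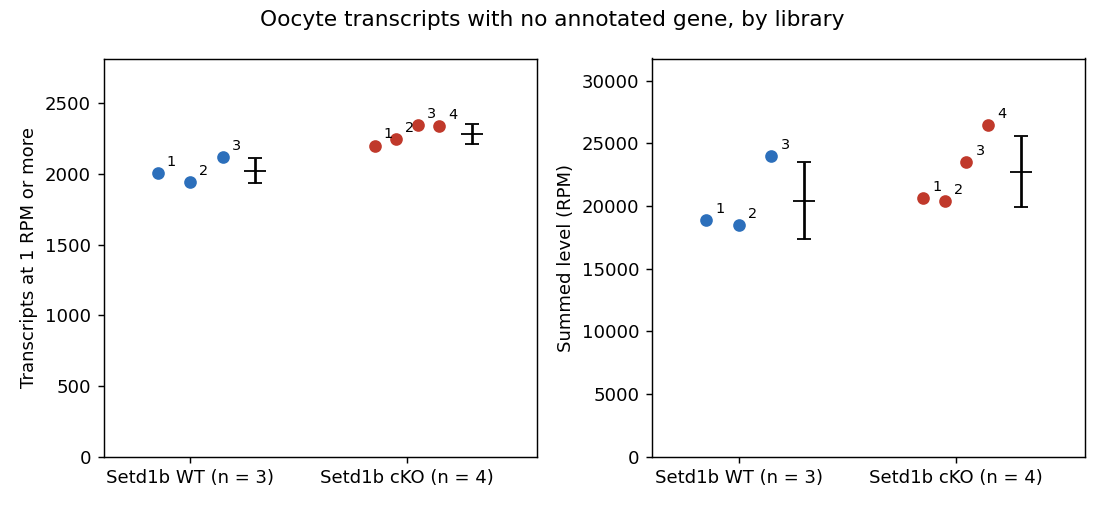
Number of members at 1 RPM or more (left) and their summed RPM (right) in each library, with replicate numbers and, beside the points, mean and SD (WT n = 3, cKO n = 4). The counts, at the limit that chose the members, were 2200 to 2346 in cKO and 1941 to 2120 in WT; over all transcripts they were 17267 to 18196 and 16484 to 16819. The sums overlap.

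The comparison of cKO with WT asks which transcripts change when SETD1B is absent during oocyte growth. Of the 2599 members, 2530 reached 1 RPM in at least 3 libraries and were tested with limma on log2(RPM + 1), with Benjamini-Hochberg adjustment over all 18179 transcripts tested. At an adjusted p under 0.05 and a change of more than 2-fold, 155 members were higher in cKO (6.13%, against 3.76% of all transcripts tested) and 48 were lower (1.9%, against 1.95%), together 203 (8.02%, against 5.71%). An unadjusted p under 0.05 was found for 732 members (28.9%, against 21.7%). Among transcripts with an annotated gene the shares were 3.39% and 1.99%. Higher members were 76.4% of the called members, and higher transcripts were 65.8% of all calls. With each library centred on its median transcript, 105 members were higher (4.15%, against 2.52%) and 69 lower (2.73%, against 2.92%), so that higher members were 60.3% of called members and higher transcripts 46.3% of all calls.

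The members that rose had a median log2 fold change of 1.55 and those that fell a median of -1.48. Summed over the 155 members that rose, the level was 1934 to 2405 RPM in cKO and 574 to 666 RPM in WT. Summed over the 48 that fell, it was 325 to 407 RPM in cKO and 1042 to 1169 RPM in WT. These sums describe members chosen by the same test. Over all members tested the median log2 fold change was 0.29, with quartiles of -0.20 and 0.71, against 0.12 over all transcripts tested and 0.10 over annotated ones. Under quantile normalisation the members' median was 0.074, against 0.0065 over all transcripts tested.

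Many of the members that rose were scarce in WT. Of the 155 that rose, 73 had a WT mean under 1 RPM, and of the 48 that fell, 7 had a cKO mean under 1 RPM. A mean of 1 RPM in both genotypes was reached by 82 of the 155 and 41 of the 48. Over all transcripts tested, it was reached by 482 of the 683 that rose and 311 of the 355 that fell. The choice of members, on a mean with more cKO libraries, favours transcripts scarce in WT. Held to a mean of 1 RPM in both genotypes, 82 of 2041 tested members were higher (4.02%, against 2.97% of all transcripts tested that met the same limit) and 41 were lower (2.01%, against 1.92%). Their median log2 fold change was 0.18, against 0.09. By library, 578 members (22.8%, against 20.3% of all transcripts tested) did not overlap between genotypes. Every cKO library was above every WT library for 428 (16.9%, against 13.2%) and below for 150 (5.93%, against 7.14%). All 155 and all 48 called members were among them.

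Single libraries moved these counts, here given with the share of members and then that of all transcripts tested. Without WT 2, 34 members were higher (1.34% and 0.946%) and 15 lower (0.593% and 0.644%), and without WT 1 the counts were 50 (1.98% and 1.36%) and 19 (0.751% and 0.842%). Without cKO 1 they were 93 (3.68% and 2.08%) and 20 (0.791% and 1.17%), and without cKO 3 they were 68 (2.69% and 1.74%) and 28 (1.11% and 1.22%). Without cKO 2, 124 were higher (4.9% and 2.76%) and 30 lower (1.19% and 1.66%), and without WT 3, 135 were higher (5.34% and 3.17%) and 29 lower (1.15% and 1.78%). Without cKO 4, 177 were higher (7% and 4.71%) and 67 lower (2.65% and 2.39%). Removing any 1 library left the higher share of members above that of all transcripts, while the lower share was under it except without cKO 4.

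**Figure D3:**
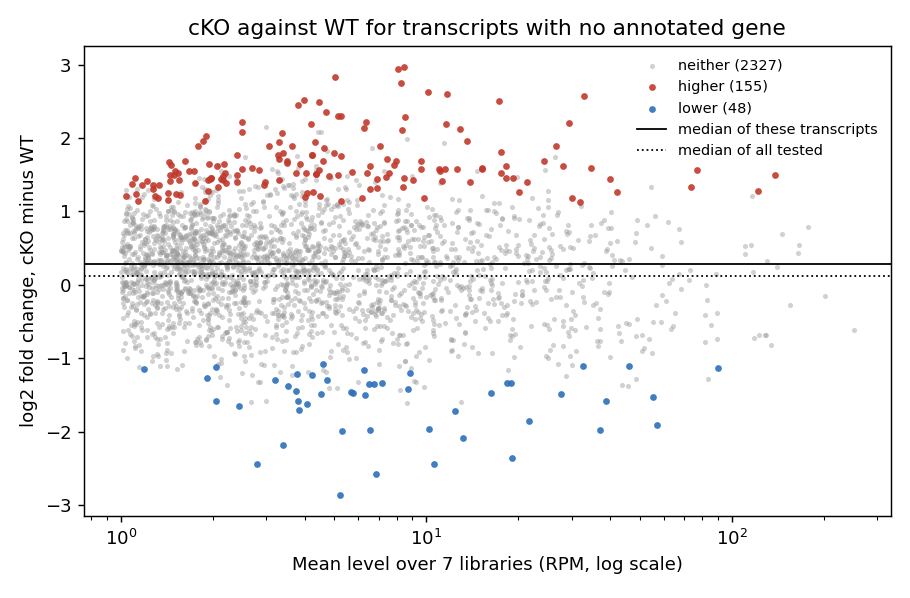
Log2 fold change of cKO minus WT, on the log2(RPM + 1) scale, against mean level over 7 libraries (RPM, log axis) for the 2530 members tested. Red points are the 155 higher in cKO, blue points the 48 lower, grey points the rest; the solid line marks the members' median of 0.29 and the dotted line the median of 0.12 over all transcripts tested.

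On the log2(RPM + 1) scale, among called members with a mean of at least 4 RPM, the largest increase was that of TCONS_00050289, at chr18:53843792-53859880 on the plus strand (GRCm38), in the RefSeq gene Gm41728 and 2123 bases from a transcript of Csnk1g3, a casein kinase gene. It had 9.01, 16.8, 14.1 and 16.8 RPM in cKO and 0.729, 0.771 and 1.22 RPM in WT. Its lowest cKO library was well above its highest WT library, giving 2.97 on the log2 scale (SE 0.30) with a limma adjusted p of 0.00118. A partner on the other strand overlapped 79.9% of it with only 0.664 ± 0.295 RPM (SD, n = 4) in cKO and 0.515 ± 0.341 RPM (SD, n = 3) in WT.

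TCONS_00097073, at chr8:44806061-44810611 on the plus strand, lies 124315 bases from the nearest annotated transcript. It had 17.0, 13.0, 17.6 and 6.52 RPM in cKO and 1.46, 0.694 and 0.374 RPM in WT. Every cKO oocyte exceeded every WT oocyte, with a log2 fold change of 2.94 (SE 0.37, adjusted p = 0.00318). It lies wholly within an opposite-strand transcript with no gene that had 1.51 ± 0.83 RPM (SD, n = 4) in cKO and 2.45 ± 1.51 RPM (SD, n = 3) in WT (log2 fold change -0.41, adjusted p = 0.611).

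TCONS_00061327, a span of 734 bases at chr2:100874925-100875659 on the minus strand, is remote from annotated transcripts, the nearest being 684953 bases away. It had 2.18, 13.8, 12.3 and 6.29 RPM in cKO and 0, 0.308 and 0.187 RPM in WT. WT was close to silent, and cKO varied several-fold. The log2 fold change was 2.83 (SE 0.49, adjusted p = 0.00955). On log2 RPM as deposited it was 5.43, above the 3.97 of TCONS_00050289, and with voom on the reads recovered from RPM it was 5.60 with an adjusted p of 0.127.

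TCONS_00024709, at chr12:56091649-56098043 on the minus strand, had 11.6, 9.14, 19.4 and 14.6 RPM in cKO and 0.810, 1.23 and 1.31 RPM in WT. Its log2 fold change was 2.75 (SE 0.31, adjusted p = 0.00233), and the nearest annotated transcript, of Brms1l, was 221912 bases away. The next 4 increases, TCONS_00071466, TCONS_00001905, TCONS_00050238 and TCONS_00055687, had log2 fold changes of 2.63, 2.61, 2.57 and 2.50. Of these TCONS_00050238, at chr18:52965074-52980593, had the most reads, with 34.4, 48.8, 34.7 and 89.0 RPM in cKO and 5.34, 12.3 and 5.61 RPM in WT. The cKO 4 oocyte stood above the other 3, and all 4 were above WT.

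For 11 of the 155 members that rose (7.1%, against 5.27% of all transcripts that rose), WT had at most 3 reads in each library, and 2 of them had no read in WT. The choice of members favours such transcripts, since cKO holds 4 of the 7 libraries in the mean. TCONS_00001413, at chr1:73378774-73379559, had 5.64, 3.05, 2.70 and 1.75 RPM in cKO, at least 13.1-fold higher than WT taken at the floor of 3 reads in each library. TCONS_00022510, at chr12:73083779-73087462, had 0.693, 2.14, 2.61 and 4.43 RPM in cKO, at least 9.81-fold higher. The latter lies 12146 bases from a transcript of Six4, a homeobox gene. Of the 48 members that fell, 0 were at 3 reads or fewer in every cKO library, against 1.97% of all transcripts that fell.

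By the same limits the largest decrease was that of TCONS_00057183, at chr2:92794654-92851806 on the plus strand, which overlaps the RefSeq genes Gm13791, Gm32413 and Gm39880. It had 0.0990, 1.56, 1.22 and 0.233 RPM in cKO and 12.0, 11.2 and 10.3 RPM in WT. The WT oocytes were alike and all far above cKO, and the log2 fold change was -2.86 (SE 0.35, adjusted p = 0.00305).

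TCONS_00017582, at chr11:5174764-5186052 on the minus strand, lies 5493 bases from a transcript of Kremen1, a receptor gene of the Wnt pathway. It had 3.17, 1.24, 1.65 and 0.466 RPM in cKO and 16.9, 11.3 and 13.3 RPM in WT, without overlap. The log2 fold change was -2.58 (SE 0.36, adjusted p = 0.00448).

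TCONS_00051024, at chr18:4749259-4806149 on the minus strand, spans 56890 bases. It had 2.87, 3.13, 1.92 and 4.19 RPM in cKO and 24.9, 17.8 and 19.2 RPM in WT, and its log2 fold change was -2.44 (SE 0.28, adjusted p = 0.00279). Its start lies 119 bases from that of Gm10556, transcribed away from it, which had 13.5 RPM in cKO and 33.0 RPM in WT and also fell (log2 fold change -1.22, adjusted p = 0.0253).

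TCONS_00035732, at chr14:86147978-86152518 on the minus strand, had 9.20, 4.78, 6.53 and 4.78 RPM in cKO and 33.9, 30.1 and 44.0 RPM in WT. All cKO oocytes lay below all WT oocytes, with a log2 fold change of -2.36 (SE 0.28, adjusted p = 0.00279). The overlapping member TCONS_00033400, on the other strand, had 1.71 ± 0.708 RPM (SD, n = 4) in cKO and 7.20 ± 1.16 RPM (SD, n = 3) in WT and fell as well (log2 fold change -1.63, adjusted p = 0.0127). Because 64.7% of the span of TCONS_00035732 lies in the other, the pair may not be separate changes, and how many reads they share was not tested.

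The next 4 decreases were TCONS_00106474, TCONS_00109672, TCONS_00088836 and TCONS_00039322, with log2 fold changes of -2.08, -1.99, -1.98 and -1.98. TCONS_00088836, at chr6:134997700-135006348, had the most reads, with 16.4, 20.7, 26.8 and 4.78 RPM in cKO and 89.4, 59.2 and 43.0 RPM in WT. Its adjusted p of 0.0375 rose to as much as 0.147 when 1 library was left out (cKO 1, WT 1 or WT 2). It starts 122 bases from Ddx47, an RNA helicase gene transcribed the other way, whose log2 fold change was -0.62 (adjusted p = 0.362). TCONS_00106474 lost its call without WT 1 or without WT 2 (adjusted p up to 0.0703), and TCONS_00039322 without WT 2 or without WT 3 (adjusted p up to 0.0717).

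**Figure D4:**
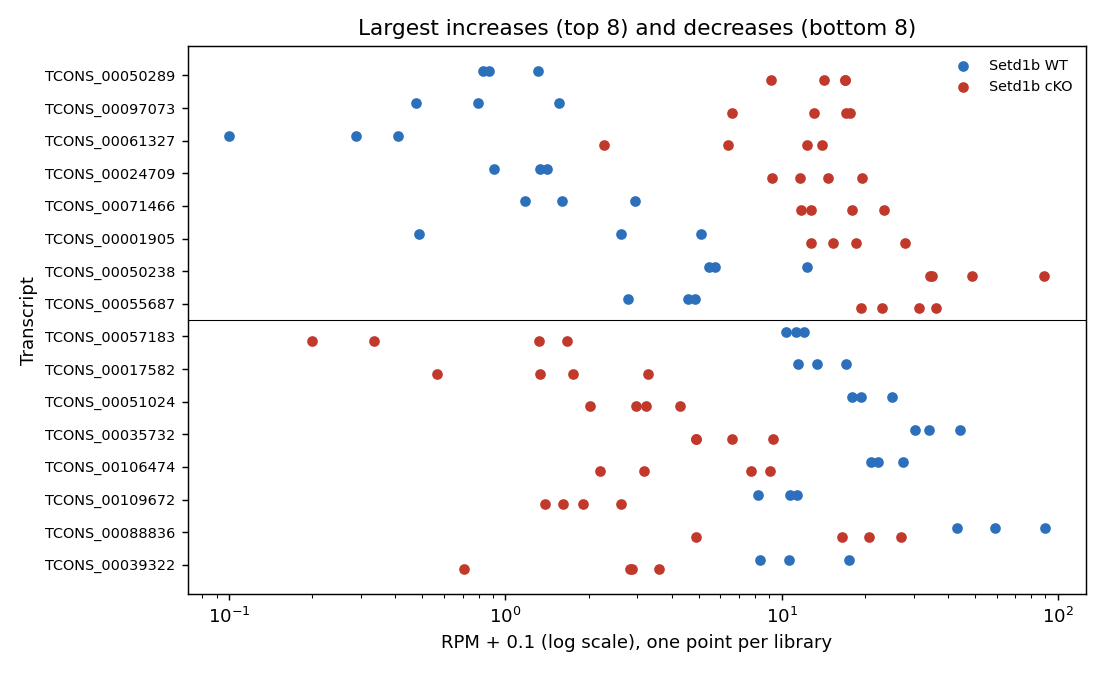
RPM + 0.1 (log axis) in each library for the 8 largest increases (upper block) and 8 largest decreases (lower block) among called members with a mean of at least 4 RPM; blue points are WT (n = 3) and red points cKO (n = 4). In every transcript shown the genotypes do not overlap; WT of TCONS_00061327 includes a library with 0 reads, drawn at 0.1.

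The 6 members with the most reads were not called, but 2 of the 21 with at least 100 RPM were higher in cKO and 0 were lower, where 3.76% and 1.95% of all transcripts tested were. TCONS_00055058, at chr19:42463685-42469533 on the minus strand, had 212, 113, 194 and 256 RPM in cKO and 64.1, 63.6 and 67.2 RPM in WT. The WT oocytes were nearly equal and all below cKO, with a log2 fold change of 1.503 (SE 0.27, adjusted p = 0.0115). TCONS_00003740, at chr1:185797615-185848582 on the plus strand, had 110, 144, 176 and 217 RPM in cKO and 42.1, 60.7 and 103 RPM in WT. Its highest WT library lay just under its lowest cKO library, and the log2 fold change was 1.28 (SE 0.32, adjusted p = 0.0437).

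TCONS_00046283, the member with the most reads, at chr17:64511881-64513681 on the plus strand, had 186, 168, 160 and 309 RPM in cKO and 232, 306 and 399 RPM in WT. The genotypes overlapped, and the log2 fold change of -0.62 (SE 0.28) had an adjusted p of 0.237. It lies wholly inside an opposite-strand transcript of AU016765 that had 2.55 ± 0.604 RPM (SD, n = 4) in cKO and 2.50 ± 0.573 RPM (SD, n = 3) in WT. At 140 RPM per kb of span it also ranked first per length among members of at least 1 kb.

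TCONS_00098592, at chr8:117812012-117920125, spans 108113 bases and had 127, 125, 225 and 299 RPM in cKO and 143, 176 and 321 RPM in WT. Its log2 fold change of -0.15 (adjusted p = 0.868) changed sign when cKO 1, cKO 2 or WT 3 was left out. TCONS_00043911, at chr16:68233878-68246950, had 288, 231, 207 and 122 RPM in cKO and 229, 69.5 and 98.3 RPM in WT (log2 fold change 0.79, adjusted p = 0.285). In both transcripts the spread within a genotype was as large as the distance between genotypes. TCONS_00097629, TCONS_00047229 and TCONS_00049468 had mean levels of 166, 165 and 156 RPM and log2 fold changes of 0.54, 0.43 and -0.28, with adjusted p of 0.477, 0.552 and 0.545.

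Next per length came TCONS_00046875, at chr17:4985929-4988772, with 38.8 RPM per kb, and TCONS_00069879, at chr4:40013194-40014453, with 34.7 RPM per kb. TCONS_00046875 lies 5173 bases from a transcript of Arid1b, a chromatin remodeller subunit gene, and its log2 fold change was 0.53 (adjusted p = 0.436). TCONS_00069879 had 41.9, 22.2, 37.4 and 8.62 RPM in cKO and 46.1, 55.5 and 94.5 RPM in WT. Every cKO library was below every WT library, but the log2 fold change of -1.36 did not pass (SE 0.47, adjusted p = 0.121). It lies wholly within the opposite-strand TCONS_00073329, which had nearly the same values, 28.5 ± 15.7 RPM (SD, n = 4) in cKO and 68.5 ± 27.6 RPM (SD, n = 3) in WT (log2 fold change -1.38, adjusted p = 0.119). Whether they share reads, which would bear on its level and rank per kb, was not tested.

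The longest member, TCONS_00001519, covers 321126 bases at chr1:75675158-75996284. It had 63.1, 48.7, 37.4 and 20.5 RPM in cKO and 16.3, 21.7 and 16.6 RPM in WT. cKO 4 fell within the WT range, and the log2 fold change of 1.08 had an adjusted p of 0.0932. Without cKO 4 the adjusted p was 0.00828. The second longest, TCONS_00100051 with 244088 bases on chromosome 8, had 2.28, 4.12, 11.0 and 2.21 RPM in cKO and 2.11, 2.31 and 1.22 RPM in WT (log2 fold change 0.83, adjusted p = 0.322).

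At the limit of 1 RPM the members just inside were TCONS_00038601 and TCONS_00032542, and just outside lay TCONS_00048822 and TCONS_00045277. TCONS_00038601 had 1.28 ± 0.598 RPM (SD, n = 4) in cKO and 0.633 ± 0.420 RPM (SD, n = 3) in WT, and TCONS_00032542 had 1.17 ± 0.453 and 0.783 ± 0.146 RPM. TCONS_00048822 had 1.18 ± 0.897 RPM in cKO and 0.756 ± 0.122 RPM in WT. TCONS_00045277 had 1.29, 1.32, 2.26 and 1.51 RPM in cKO and 0.162, 0 and 0.374 RPM in WT.

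By length, the share of members that rose was 8.4% under 1 kb (21 of 250 tested), 6.03% from 1 to 5 kb (45 of 746), 5.72% from 5 to 20 kb (57 of 997), 5.79% from 20 to 100 kb (29 of 501) and 8.33% over 100 kb (3 of 36). Annotated transcripts in the same classes had 4.07%, 5.21%, 3.71%, 2.74% and 2.8%. The members that fell numbered 1 (0.4%), 4 (0.536%), 31 (3.11%), 12 (2.4%) and 0, against 1.78%, 1.43%, 1.91%, 1.99% and 2.7% of annotated transcripts. The members' median log2 fold changes by class, from short to long, were 0.47, 0.37, 0.23, 0.15 and 0.30. Annotated transcripts of the same length classes had medians of 0.14, 0.19, 0.13, 0.07 and 0.07. The members that rose had a median span of 5848 bases and those that fell 11755.5 bases. Across members, span and log2 fold change had a Spearman correlation of -0.179, and level and log2 fold change of -0.0645.

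By level, the share of members that rose was 4.73% at 1 to 2 RPM, 4.99% at 2 to 4 RPM, 8.22% at 4 to 16 RPM and 6.90% at 16 RPM or more. Annotated transcripts in the same classes had 2.34%, 3.88%, 4.19% and 3%. The share of members that fell went from 0.249% at 1 to 2 RPM to 4.08% at 16 RPM or more, against 0.816% and 2.82% of annotated transcripts. RPM classes are not scaled for length, and the differences between classes were not tested.

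**Figure D5:**
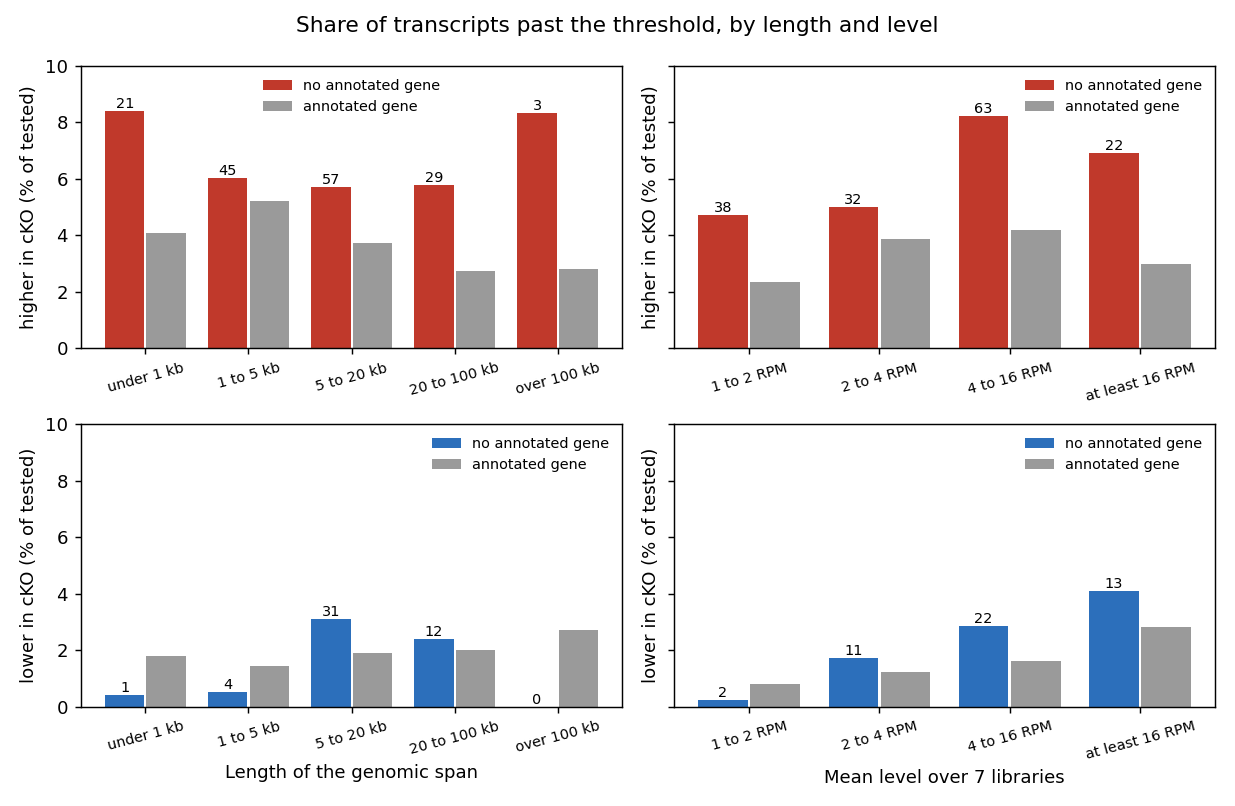
Percent of tested transcripts higher (upper row) and lower (lower row) in cKO, by genomic span (left) and mean level (right), for members (coloured bars, number called above) and annotated transcripts (grey bars). Members at 4 to 16 RPM were higher in 8.22% against 4.19% of annotated transcripts, and only 1 of 250 members under 1 kb was lower.

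By chromosome the higher members ranged from 2 of 82 tested on chromosome 7 (2.44%) to 13 of 135 on chromosome 15 (9.63%), against 3.76% of all transcripts tested. Lower calls were 1.95% of all transcripts tested. Chromosome 1 had 16 of 217 higher and 0 lower. Chromosomes 12 and 16 also had 0 lower, of 106 and 80 tested. Chromosome 18, with the highest share of members, had 11 of 138 higher and 2 lower. On the X chromosome 4 of 95 were higher and 4 lower. The differences between chromosomes were not tested.

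Some called members lay near each other. Another higher member was within 50 kb of 12 of the 155 that rose (7.74%) and of 44 of the 2327 with no call (1.89%), and another lower member was within 50 kb of 2 of the 48 that fell (4.17%) and of 13 with no call (0.559%). Pairs that overlap are included, and the differences were not tested. Joined where they lay within 50 kb of one another, members called in the same direction formed 6 pairs of higher members and 1 pair of lower members, and 0 groups of 3 or more. On chromosome 8, TCONS_00100164 (chr8:44753500-44785051, minus strand) lies upstream of TCONS_00097073 on the other strand. It had 37.8, 41.2, 39.9 and 40.0 RPM in cKO and 16.03, 18.9 and 15.8 RPM in WT. These libraries were nearly equal within each genotype, and the log2 fold change was 1.19 (SE 0.20, adjusted p = 0.00895).

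On chromosome 1, TCONS_00007990 and TCONS_00003924 lie on opposite strands without overlap, at chr1:192163835-192178336 and chr1:192179730-192182555. TCONS_00007990 had 9.11, 9.88, 11.7 and 12.2 RPM in cKO and 2.19, 1.85 and 2.43 RPM in WT (log2 fold change 1.89, SE 0.26, adjusted p = 0.00411). TCONS_00003924 had 7.42, 6.51, 12.7 and 11.8 RPM in cKO and 1.70, 1.77 and 4.02 RPM in WT (log2 fold change 1.61, SE 0.34, adjusted p = 0.0214). Both were higher in every cKO oocyte, and their starts face away from each other across a short gap.

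On chromosome 13, TCONS_00027621 and TCONS_00030402 overlap on opposite strands. TCONS_00027621 had 7.42, 8.48, 13.0 and 1.28 RPM in cKO and 0.243, 0.617 and 0 RPM in WT (log2 fold change 2.49, SE 0.54, adjusted p = 0.0228). TCONS_00030402 had 7.52, 10.3, 14.2 and 1.86 RPM in cKO and 0.891, 1.08 and 0.0936 RPM in WT (log2 fold change 2.31, adjusted p = 0.0273). In both, cKO 4 was the lowest of the cKO libraries and WT 3 the lowest of WT. Whether the pair shares reads was not tested. The other higher pairs were TCONS_00081667 with TCONS_00077952 on chromosome 5, TCONS_00008966 with TCONS_00012151 on chromosome 10 and TCONS_00014454 with TCONS_00014457 on chromosome 11. Their log2 fold changes were 1.96 and 1.75, 1.62 and 1.57, and 1.25 and 1.52. The pairs on chromosomes 5 and 10 overlap on opposite strands.

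Some called members lay near called genes. A higher annotated transcript was within 50 kb of 5 of the 155 members that rose (3.23%), and of 65 of the 2327 members with no call (2.79%). The 5 were TCONS_00076357 (13646 bases from Gm42719), TCONS_00101831 (35839 bases from Agt, the angiotensinogen gene), TCONS_00014454 and TCONS_00014457 (6256 and 899 bases from Gm11988) and TCONS_00042055 (overlapping Chmp2b). TCONS_00042055, whose start lies in the Chmp2b window printed above, had 7.22, 6.09, 7.05 and 8.27 RPM in cKO and 2.59, 1.85 and 3.84 RPM in WT. Its log2 fold change of 1.15 (SE 0.28, adjusted p = 0.0399) stood beside 1.03 for Chmp2b (adjusted p = 0.0260). Whether these opposite-strand transcripts share reads was not tested. Of the members that fell, only TCONS_00051024 had a lower annotated transcript within 50 kb, Gm10556.

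Some members start head to head with annotated transcripts. Within 1 kb, 151 members (5.81%) had an annotated start on the opposite strand, with spans apart or overlapping there. These were 7 of the 155 that rose (4.52%) and 2 of the 48 that fell (4.17%), against 5.65% of members tested. TCONS_00037528 rose by a log2 fold change of 1.23 while 8430426J06Rik, starting 101 bases away, had -0.80 (adjusted p = 0.0527). TCONS_00101831 rose by 1.33 while Cog2, a Golgi complex subunit gene starting 157 bases away, had -0.40 (adjusted p = 0.675). Conversely Fancc, a DNA repair gene, fell by 1.42 on the log2 scale (adjusted p = 0.00981) beside TCONS_00027505 at 0.12. In the pairs with Cog2 and Fancc the spans overlap at their starts, and whether they share reads was not tested. The difference between partners was not tested.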

How the data were processed

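RNA-seq of single GV oocytes (4 Setd1b cKO, 3 Setd1b WT) used the SMARTer Ultra Low kit and NEBNext libraries. Per the study's methods, the authors trimmed reads, aligned them to GRCm38 with Hisat, guided by Ensembl splice sites, removed low mapping qualities and quantified oocyte transcripts defined earlier, with isoforms merged, in SeqMonk. The deposited values are log2 RPM, with 0 reads set to 0.9 read; whether counting used strand is not given in the sources used here. Values were returned to RPM (0 reads to 0), and 100% of values above that floor were whole reads within 0.01 read.

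Transcripts with at least 1 RPM in 3 libraries were tested by limma 3.58.1 (R 4.3.3; log2(RPM + 1), eBayes with trend, Benjamini-Hochberg over 18179 transcripts); a call needed an adjusted p under 0.05 and over 2-fold on this scale, which understates the change of low transcripts. Standard errors are limma's moderated ones. The script was tested on simulated data. Overlaps used GenomicRanges 1.54.1, GENCODE M21 and RefSeq. The closest replicate libraries differed beyond sampling noise (chi-square per degree of freedom at least 15.6).

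Named members were the 6 with most reads; the 3 with most per kb among spans of at least 1 kb; the 8 largest changes in each direction among called members with a mean of 4 RPM and no overlap of genotypes; the 2 longest; the 2 on each side of 1 RPM; and the largest runs of called neighbours. Other names were chosen after their values were seen. The members and lists were chosen with earlier results of these data known. No columns of sample values were left unused. Floors and read limits cover counting error only.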

Additional observations from a re-analysis of the deposited data

How the results depend on the processing

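The direction of change held in every alternative for all 16 members with the largest increases and decreases. These were chosen with no overlap between genotypes, so leaving out a library or changing the pseudocount could not have reversed them. Of the named log2 fold changes, 522 comparisons with an alternative kept direction and call, 9 lost and 4 gained the call, and TCONS_00098592 reversed (0.019 without cKO 1, 0.027 without cKO 2, 0.19 without WT 3; range with 1 library left out -0.39 to 0.19; the cause was not tested).

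Higher and lower members, with the share of all transcripts tested in parentheses, numbered 52 (1.73%) and 22 (1.31%) with a pseudocount of 5 RPM (median log2 fold change 0.13), 82 (1.35%) and 23 (0.861%) with no filter, 90 (2.35%) and 73 (2.43%) with quantile normalisation (median 0.074, against 0.0065 over all transcripts), 282 (6.58%) and 81 (3.05%) with library quality weights, and 30 (0.836%) and 12 (0.605%) at an adjusted p under 0.01. Higher members numbered 80 (3.78%) with a filter at a mean of 4 RPM, 77 (2.44%) with voom on recovered reads, 82 with 1 RPM in both genotypes (4.02% of members, against 2.97%) and 85 among members of at least 4 RPM (7.83% of members, against 3.76%). Lower members numbered 34 with that filter (3.13% of members, against 2.39%) and 35 among members of at least 4 RPM (3.23%, against 1.95%). With voom 41 were lower (1.62%, against 1.8%), and with 1 RPM in both genotypes 41 (2.01%, against 1.92%). The median was 0.13 when centred on the median transcript, against -0.033 over all transcripts. Scaled to reads within transcripts, 181 members were higher (7.08% of members, against 4.46%) and 41 lower (1.6%, against 1.65%). Higher members were 55.2% of called members with quantile normalisation and 65.3% with voom, where higher transcripts were 49.2% and 57.5% of all calls. Leaving out 1 library gave 34 to 177 higher and 15 to 67 lower members. With the replicate block, 76 members were lower (2.63%) and 188 higher (5.08%). That fit also loses cKO 4, which has no WT library of its number, and without cKO 4 alone 67 were lower and 177 higher. Deviations of same-numbered libraries had correlations of 0.192, 0.295 and -0.129, and those of differently numbered libraries ran from -0.551 to 0.608. With so few libraries these values cannot show whether the numbers pair the oocytes, and the labels do not say. The causes of these shifts were not tested.

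At 4 RPM the difference in members detected was 170.5, against 258.6 at 1 RPM, and 565 members had a neighbour within 10 kb. Chosen after seeing the data were the alternatives of members that overlap no other transcript (120 higher, 6.41%, and 39 lower, 2.08%, of 1873 tested, against 3.76% and 1.95% of all transcripts; median 0.30), leaving out libraries for the summed level and the number detected, and the number detected over all transcripts and over members held to 1 RPM in both genotypes. CpG density at the members' own starts was not run, since no genome sequence was used here. At 8582493 to 12972366 reads and 3 and 4 oocytes, members near 1 RPM rest on few reads a library, and small changes there were not detectable.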
